A study of Homo sapiens with 6 samples.

Results

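The genes examined were 10 transcripts that report ERK output: the MAP kinase phosphatases DUSP4, DUSP5 and DUSP6, the Sprouty genes SPRY2 and SPRY4, the Sprouty-related genes SPRED1 and SPRED2, the ETS transcription factors ETV4 and ETV5, and PHLDA1. They were taken by gene symbol from a count table of 28008 genes, and all 10 were found and passed the filter on low counts. By the sample labels, the table holds RNA-Seq libraries of DU-145-DR/tet-MUC1shRNA cells. Its columns give the line as DU145TR where the sample titles have DU145DR, so each column was assigned by its DOX state and its number alone. DU-145 is a human prostate cancer line, DU-145-DR is its docetaxel-resistant (DTX-resistant) derivative, and tet-MUC1shRNA is a doxycycline-inducible (DOX-inducible) hairpin against MUC1. DOX-negative cells received 0.1% DMSO as vehicle (n = 3 cultures) and DOX-positive cells received 500 ng/ml DOX (n = 3 cultures), for 7 days by the study's account. Only the DOX-positive samples have the hairpin in their treatment label, so that the vehicle-treated cells carry it too is taken from the study. There was a single hairpin and no library of DOX-treated cells with a control hairpin, so MUC1 silencing and exposure to DOX cannot be told apart. Bulk libraries also cannot separate less RNA per cell from fewer cells that make it.

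The ERK kinases are the last of the RAS-RAF-MEK cascade that growth factor receptors switch on. Active ERK induces its own inhibitors: DUSP phosphatases that dephosphorylate ERK, Sprouty proteins that act between receptor and RAS, and SPRED proteins that bring the RAS-inactivating protein neurofibromin to the membrane. ETV4 and ETV5 belong to the PEA3 group of ETS factors, are held down by the repressor CIC, and with ETV1 and ERG are among the ETS genes that chromosome fusions activate in prostate cancer. By immunoblot, the study reported that phosphorylated ERK was lower in these cells when DOX silenced MUC1-C. It reported the same direction in DU-145-DR cells treated with an inhibitor of MUC1-C in place of DOX. The comparison here is of RNA alone and asks what the transcripts downstream of ERK did when MUC1 was silenced. How the protein results relate to the RNA changes below was not tested.

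In GENCODE 29 (GRCh38), DUSP5 lies at chr10:110497838-110511544 and SPRED1 at chr15:38252326-38357249, both on the plus strand. On the minus strand lie DUSP6 at chr12:89347232-89353271, PHLDA1 at chr12:76025447-76033932, SPRY2 at chr13:80335976-80340951, SPRY4 at chr5:142310427-142326455, SPRED2 at chr2:65310851-65432637, ETV4 at chr17:43527844-43579620 and ETV5 at chr3:186046308-186110318.

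The targeted gene was examined first. MUC1 counts were 387, 484 and 396 with vehicle and 75, 74 and 66 with DOX, a log2 fold change of -2.52 (adjusted p 4.47e-11 by edgeR, SE 0.146). Library totals ranged from 15092691 to 23243713 counts. A count of 3, used as the floor of detection, was between 0.129 and 0.199 CPM (counts scaled to the TMM-adjusted library size, used throughout), and it covers counting error only. The deposited TPM, which are scaled per transcript length, moved the median change of all genes by -0.37 to -0.39 on the log2 scale, and 5 short noncoding RNAs held 34.4% of the TPM of DOX-negative replicate 2 and between 51.2% and 64.4% of the others. Without those 5 RNAs the shift was -0.024. Directions given below are from counts, and "rose" and "fell" refer to genes with an adjusted p under 0.05 by edgeR's quasi-likelihood test. The epithelial markers EPCAM, KRT8, KRT18 and CDH1 were present, and all 4 rose with DOX, their summed level going from between 587 and 651 CPM to between 1077 and 1165 CPM. Markers of immune, endothelial and stromal cells summed to between 95.6 and 111 CPM with vehicle and between 163 and 185 CPM with DOX, of which CD68, also made by many tumour cells, was 101 and 169 CPM on average. The part of either marker list in the results below was not tested. KLK3, CHGA and CD3E had 0 counts in every library.

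Of the 10 ERK feedback and ETS genes, 7 rose and 1 fell with DOX, whereas 26.7% of the 14292 genes tested were called in either direction, 13.0% as higher and 13.7% as lower. The 10 genes were chosen with earlier results of these data known, so this contrast is no independent evidence. The 7 that rose were DUSP5, SPRY4, DUSP6, SPRED2, ETV4, SPRED1 and PHLDA1, although with the deposited TPM SPRED1 and PHLDA1 took the opposite sign. The gene that fell was SPRY2. DUSP4 and ETV5 did not pass the threshold. The median log2 fold change of the 10 genes was 0.40, against -0.0034 for all genes tested. CPM ranges were apart for 8 of the 10 genes, and for 39.8% of all genes tested. With limma on either version of the deposited TPM, 0 of the 10 genes were called and 2 had an unadjusted p under 0.05. Once the 5 short noncoding RNAs were taken out of the TPM, 7 were called, all but PHLDA1 of the 8 called from counts.

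**Figure D1:**
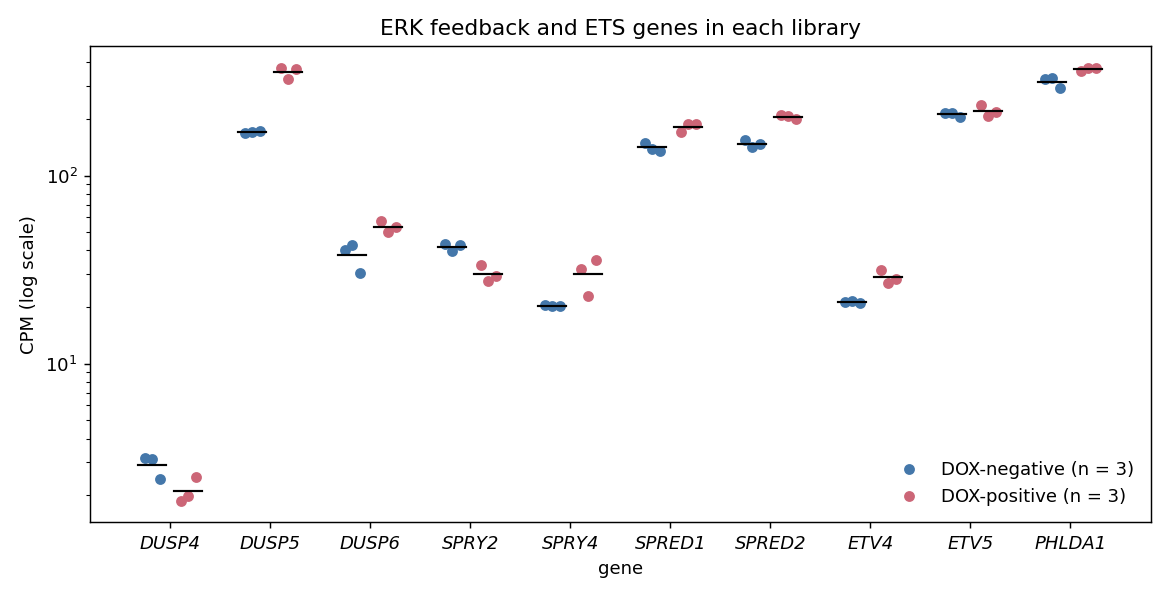
CPM (log axis) of the 10 ERK feedback and ETS genes in each of the 3 DOX-negative (blue) and 3 DOX-positive (red) libraries, with a line at each group's mean. The groups separate for 8 genes, upward for 7 and downward for SPRY2, and the points of DUSP4 and ETV5 overlap. With the deposited TPM, SPRED1, PHLDA1 and ETV5 take the opposite sign.

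Among the phosphatases, DUSP5, a nuclear phosphatase that acts on ERK, changed most. Its level was 168, 171 and 171 CPM with vehicle and 375, 327 and 368 CPM with DOX. Each DOX-positive library stood far above each DOX-negative library, and the mean went from 170.1 ± 2.13 to 357 ± 25.9 CPM (SD, n = 3 each). The log2 fold change was 1.07 (adjusted p 8.93e-11 by edgeR, SE 0.0648), or 209.6% of the DOX-negative mean. GENCODE 29 lists a processed pseudogene, DUSP5P1, which can share reads with DUSP5 but had between 12 and 20 counts in each library, where DUSP5 had between 3046 and 8597.

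DUSP6, the cytoplasmic ERK phosphatase often used as the readout of ERK activity, also rose. It had 40.4, 42.8 and 30.2 CPM without DOX and 57.4, 50.04 and 53.1 CPM with DOX. The DOX-negative libraries were spread more widely, with replicate 3 the lowest, and all lay below the DOX-positive ones. The log2 fold change was 0.50 (adjusted p 0.000919 by edgeR, SE 0.104). Without DOX-negative replicate 3, the lowest library, it was 0.36.

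DUSP4, an inducible nuclear phosphatase for ERK and other MAP kinases, was the rarest of the 10 genes. It had 57, 61 and 49 counts with vehicle and 43, 38 and 37 counts with DOX, which is 2.90 ± 0.399 and 2.12 ± 0.327 CPM (SD, n = 3 each). The groups overlapped, since DOX-positive replicate 3 at 2.49 CPM was above DOX-negative replicate 3 at 2.44 CPM. Its log2 fold change was -0.47 (adjusted p 0.179 by edgeR, SE 0.250), with a 95% interval from -0.99 to 0.054. The interval holds both no change and a fall as large as that of SPRY2.

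The Sprouty genes moved in opposite directions. SPRY2 had 43.2, 39.6 and 42.9 CPM without DOX and 33.6, 27.6 and 29.2 CPM with DOX. All DOX-positive libraries lay below all DOX-negative libraries, and the log2 fold change was -0.47 (adjusted p 0.000495 by edgeR, SE 0.0910). SPRY4 had 20.6, 20.3 and 20.2 CPM without DOX and 31.8, 23.0 and 35.6 CPM with DOX. The DOX-negative libraries were nearly equal, whereas the DOX-positive ones ranged widely with replicate 2 close to the vehicle level. The log2 fold change of SPRY4 was 0.56 (adjusted p 0.00151 by edgeR, SE 0.122), and leaving out DOX-positive replicate 2 or 3 gave 0.72 and 0.43.

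Both SPRED genes rose, although SPRED1 took the opposite sign in the deposited TPM. SPRED1 had 149.6, 139 and 135 CPM without DOX and 169.9, 187 and 188 CPM with DOX, a log2 fold change of 0.36 (adjusted p 0.000316 by edgeR, SE 0.0667). SPRED2 had 154, 142 and 148 CPM without DOX and 209, 206 and 199 CPM with DOX, a log2 fold change of 0.47 (adjusted p 7.41e-06 by edgeR, SE 0.0624). The groups did not overlap for either gene. The 95% intervals, from 0.22 to 0.50 for SPRED1 and from 0.34 to 0.60 for SPRED2, overlapped.

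Of the PEA3 factors, ETV4 rose and ETV5 did not pass the threshold, and the difference between their changes was not tested. ETV4 had 21.2, 21.6 and 20.9 CPM without DOX and 31.3, 26.9 and 28.2 CPM with DOX, with no overlap between groups. Its log2 fold change was 0.44 (adjusted p 0.00145 by edgeR, SE 0.0960). Exons of ETV4 overlap those of DHX8 on the opposite strand, and DHX8 had between 1189 and 1835 counts against 385 to 719 for ETV4, so reads of the pair could not be told apart if the authors counted without strand. Exons of DUSP6 and PHLDA1 likewise overlap antisense genes on the opposite strand, for which no counts were available. ETV5, the more abundant factor, had 214, 216 and 204 CPM without DOX and 237, 207 and 219 CPM with DOX. Those ranges overlapped, and the log2 fold change was 0.067 (adjusted p 0.488 by edgeR, SE 0.0645) with a 95% interval from -0.067 to 0.20. With 1 library left out it ran from 0.014 (without DOX-positive replicate 1) to 0.11 (without DOX-positive replicate 2). Exons of ETV5 overlap those of DGKG on the same strand, which had between 241 and 390 counts where ETV5 had between 3252 and 5437.

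PHLDA1, which encodes a pleckstrin homology-like protein and is part of common ERK output signatures, had the highest mean CPM of the 10 genes in both groups, although DUSP5 was above it in DOX-positive replicate 1. It had 326, 329 and 291 CPM without DOX and 361, 373 and 372 CPM with DOX. The groups did not overlap, but the distance between them was small and DOX-negative replicate 3 was the lowest. The log2 fold change was 0.23 (adjusted p 0.0106 by edgeR, SE 0.0630). Without DOX-negative replicate 3 it was 0.17, with an edgeR adjusted p of 0.0620 that no longer passed the threshold.

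**Figure D2:**
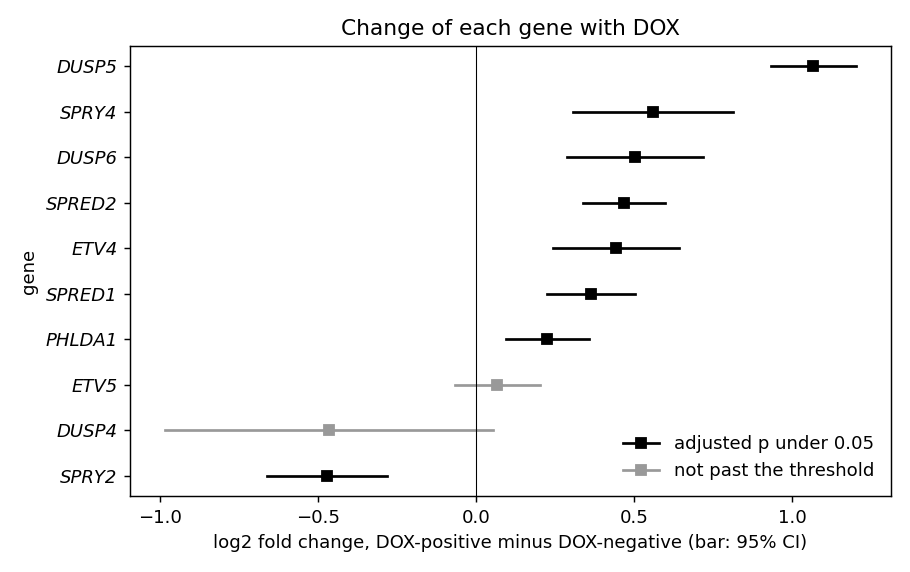
Log2 fold change from DOX-negative to DOX-positive (x axis) of each gene (y axis) from the edgeR fit to counts, with bars for the 95% confidence interval, in black where the adjusted p is under 0.05. DUSP5 stands apart at 1.07, 6 genes lie between 0.23 and 0.56, and SPRY2 lies at -0.47. With the deposited TPM, SPRED1, PHLDA1 and ETV5 take the opposite sign.

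Levels were compared between genes with the deposited TPM, which account for transcript length. DUSP5 was the most abundant of the 10 in each of the 6 libraries, at 99.0 ± 30.6 TPM without DOX and 153 ± 10.7 TPM with DOX (SD, n = 3 each). PHLDA1 and ETV5 followed, and their TPM ranges overlapped in both groups. SPRED2, at 44.04 TPM without DOX, and SPRED1, at 26.5 TPM, came next in each library. Then came SPRY2 at 17.1, DUSP6 at 16.4 and ETV4 at 11.2 TPM without DOX, SPRY4 at 5.07 TPM, and DUSP4 at 0.548 TPM, the lowest in each library. With DOX the order of the 3 genes in the middle was DUSP6, ETV4 and SPRY2 in each library, so SPRY2 moved from below SPRED1 to below ETV4. Across the DOX-negative libraries the TPM ranges of most neighbours in this order overlapped, but SPRY4 lay above DUSP4 and below ETV4 without overlap.

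The share of each gene within its family is free of the scaling between libraries but depends on the correction for length. DUSP5 held 85.8% ± 2.22 of the summed TPM of DUSP4, DUSP5 and DUSP6 without DOX and 90.1% ± 0.282 with DOX (SD, n = 3 each). The share of DUSP6 went from 13.7% ± 2.17 to 9.76% ± 0.302, although its own level rose, and DUSP4 held less than either at 0.464% and 0.170%. Of the TPM of the Sprouty pair, SPRY2 held 77.7%, 76.4% and 77.8% with vehicle and 63.6%, 66.6% and 57.6% with DOX. SPRY4 took the rest, so its share went from 22.7% ± 0.782 to 37.4% ± 4.57 (SD, n = 3 each). ETV4 held 13.4% ± 0.213 of the TPM of the PEA3 pair without DOX and 16.7% ± 0.193 with DOX, and the groups did not overlap. The SPRED pair kept overlapping shares, with SPRED1 at 37.4% ± 0.842 and 35.7% ± 1.78. Shares of counts, which are not per length, differed from these in all 9 genes: without and with DOX, DUSP4 held 1.37% and 0.514%, SPRY4 32.7% and 49.7%, ETV4 9.14% and 11.5%, and SPRED1 48.9% and 47.03%. The direction between groups was the same, and only the SPRED pair overlapped.

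**Figure D3:**
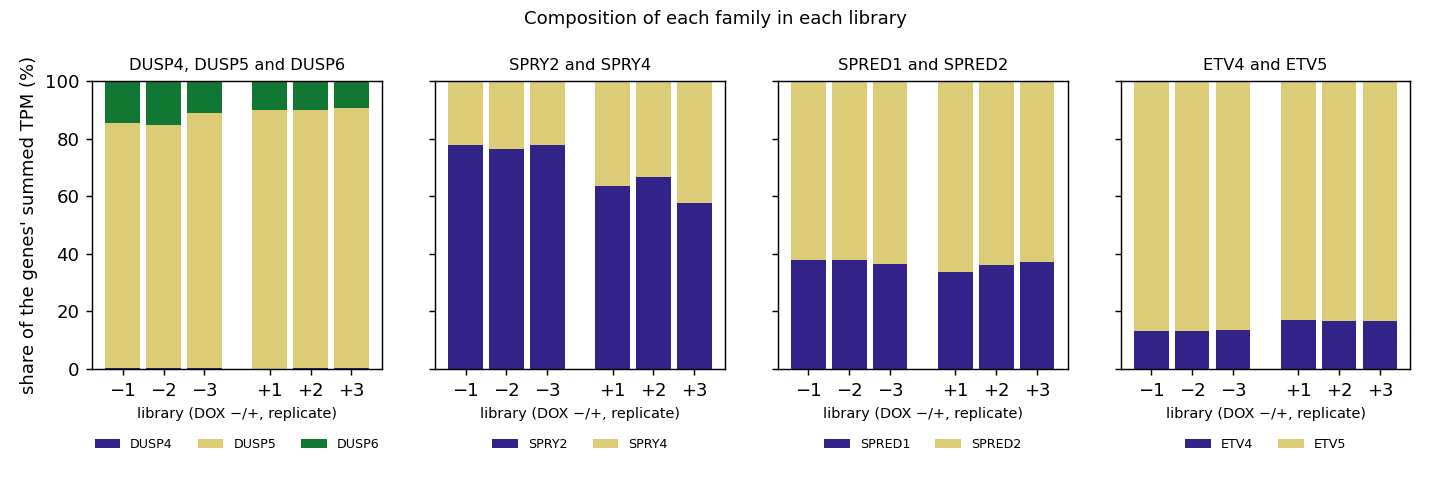
Share of the summed deposited TPM (y axis, percent) held by each gene of 4 families in each library (x axis, 3 DOX-negative then 3 DOX-positive replicates). SPRY2 falls from between 76.4% and 77.8% to between 57.6% and 66.6% of its pair, and DUSP5 holds most of its family in every library.

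Sequence features that members share were read from the GENCODE 29 transcripts (GRCh38). The heptamer ATCAGTA is shown because genes whose 3′UTR holds it were lower with DOX: their median log2 fold change was -0.11 over 1209 genes, against 0.0016 for those without it among 12083 genes tested with a 3′UTR. It was picked out by a scan of these same libraries, so this difference is no independent evidence, and whether it pairs with the hairpin was not tested, as the sequence of the hairpin was not used here. It occurs in the 3′UTR of 10.0% of those genes, of 21.5% of the genes called lower and of 7.43% of the genes called higher. Among the 10 genes it occurs once each in SPRY2, SPRED1 and PHLDA1. The windows below are 30 bases from the 3′UTR exon in transcript direction, with the heptamer in capitals, and lie at chr13:80336271-80336300 (minus strand) in SPRY2, chr15:38353851-38353880 (plus strand) in SPRED1 and chr12:76029423-76029452 (minus strand) in PHLDA1.
SPRY2: aatgtgaatcaATCAGTAtgtttttagatt
SPRED1: gttaagcactaATCAGTAtagtgcaactcc
PHLDA1: tctaaaaggaaATCAGTAgttaaggatacc
SPRY2, the gene that fell, holds the heptamer. SPRED1 and PHLDA1, which rose, hold it as well. They also have the longest 3′UTRs of the 10 genes, of 5585 and 4672 bases, which leave more room for a match. That of SPRY2 has 782 bases. The other 5 genes that rose, DUSP5, DUSP6, SPRY4, SPRED2 and ETV4, lack it in the 3′UTR examined, as do DUSP4 and ETV5. A match is a description of the sequence and its part in these changes was not tested.

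AU-rich elements, which mark many short-lived transcripts, were counted in the same 3′UTRs. The core TATTTAT occurs in 6 of the 10 genes, DUSP4, SPRY2, SPRED1, SPRED2, ETV5 and PHLDA1, and in 33.9% of genes tested. The longer TTATTTATT occurs in DUSP4 and PHLDA1 and in 8.81% of genes tested, and each match to it also counts as one to the core. The window that holds it in PHLDA1, shown with the match in capitals, lies at chr12:76029786-76029815 (minus strand).
PHLDA1: tgatttatgaTTATTTATTagttttttttt
Members with the core were in every class, higher, lower and not called. These counts do not allow for the length of the 3′UTR.

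The other genes of the pathway were taken from 5 lists of textbook members, chosen with earlier results of these data known. The shares of genes called in these lists are therefore no independent evidence. The first list holds other transcripts that ERK induces. Of these 17 ERK output genes, 13 rose, 0 fell and 4 did not pass the threshold by edgeR. That is 76.5% called, against 26.7% of all genes tested. At an unadjusted p under 0.05, 0 were lower by edgeR, by DESeq2 or by limma on TPM. With limma on the deposited TPM 0 were called and 1 had an unadjusted p under 0.05. Their median log2 fold change was 0.51. The largest rises were in HMGA2, an architectural chromatin protein (log2 fold change 1.43, SE 0.123, edgeR adjusted p 1.77e-08), EMP1, an epithelial membrane protein (0.98, SE 0.0961), and AREG, the EGFR ligand amphiregulin (0.84, SE 0.0712). CCND1, which encodes cyclin D1, went from 845 ± 18.7 to 1059 ± 17.6 CPM (mean ± SD of 3 libraries), or a log2 fold change of 0.32 (adjusted p 0.000329 by edgeR, SE 0.0600) that took the opposite sign with the deposited TPM. FOSL1, the AP-1 subunit FRA1, went from 192 ± 15.5 to 291 ± 19.8 CPM, a log2 fold change of 0.60 (adjusted p 1.30e-06 by edgeR, SE 0.0699). EGR1, an immediate early gene, was at 27.8 ± 3.17 and 26.9 ± 3.34 CPM (SD, n = 3 each), with a log2 fold change of -0.043 (adjusted p 0.813 by edgeR, SE 0.107), which turned positive on leaving out replicate 2 of either group (0.054 for vehicle, 0.049 for DOX). FOS, EPHA4 and MAFF were the other genes of this list that did not pass.

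Relatives of the 10 genes outside the set were a second list. Of 12 other MAP kinase phosphatase, Sprouty, SPRED and PHLDA genes, 10 were tested, 4 rose and 1 fell. That is 50% called, against 26.7% of all genes tested, with a median log2 fold change of 0.23. With limma on the deposited TPM, however, 0 were called and 3 had an unadjusted p under 0.05. DUSP1, an immediate early phosphatase that acts on p38 and JNK as well as ERK, rose from 83.6 ± 2.51 to 165 ± 5.87 CPM (mean ± SD of 3 libraries), or a log2 fold change of 0.98 (adjusted p 3.78e-10 by edgeR, SE 0.0655). SPRY1 was rare and went from 2.43 ± 0.519 to 4.39 ± 0.659 CPM, a log2 fold change of 0.86 (adjusted p 0.00736 by edgeR, SE 0.228). PHLDA3, a relative of PHLDA1, had a log2 fold change of 0.72 (adjusted p 2.59e-05 by edgeR, SE 0.106). SPRED3 fell, with a log2 fold change of -0.73 (adjusted p 0.000244 by edgeR, SE 0.131), whereas SPRED1 (with the opposite sign in the deposited TPM) and SPRED2 rose. DUSP2 and SPRY3 were too rare to be tested.

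Among 29 other ETS factors and regulators of CIC, 19 were tested, 4 rose and 1 fell. That is 26.3% called, no more than the 26.7% of all genes, with a median log2 fold change of 0.092. With limma on the deposited TPM 0 were called and 1 had an unadjusted p under 0.05. ATXN1, a partner of CIC, had a log2 fold change of 0.49 (adjusted p 0.000242 by edgeR, SE 0.0882), while CIC itself had -0.11 (adjusted p 0.357 by edgeR, SE 0.0804). ETS1 had 0.45 (adjusted p 1.48e-05 by edgeR, SE 0.0636), and ETS2 had 0.25 (adjusted p 0.00411 by edgeR, SE 0.0605), with the opposite sign in the deposited TPM for ETS2. ELF3, an epithelial ETS factor, had 0.45 (adjusted p 0.0217 by edgeR, SE 0.140), and this call was lost on leaving out vehicle replicate 1 (edgeR adjusted p 0.0784) or 3 (0.0836), or DOX replicate 1 (0.0637) or 2 (0.0647). ERF, an ETS repressor that ERK inactivates, fell with a log2 fold change of -0.33 (adjusted p 0.00537 by edgeR, SE 0.0850). Of the fusion-associated factors outside the set, ERG was near the limit of the filter at 1.40 ± 0.310 and 0.880 ± 0.122 CPM (SD, n = 3 each; edgeR adjusted p 0.181), and ETV1 was below the floor on average at 0.0663 and 0.0174 CPM and was not tested.

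The cascade itself was a further list. Of its 26 genes, all tested, 5 rose and 3 fell, 30.8% against the 26.7% of all genes, with a median log2 fold change of 0.062. With limma on log2(TPM + 1) 0 were called and 3 had an unadjusted p under 0.05. MAP2K1, which encodes MEK1, had a log2 fold change of 0.10 (adjusted p 0.346 by edgeR, SE 0.0740), with the opposite sign in the deposited TPM. With 1 library left out it ran from 0.058 (without DOX-positive replicate 1) to 0.17 (without DOX-positive replicate 2). MAPK3, which encodes ERK1, had -0.064 (adjusted p 0.617 by edgeR, SE 0.0832), with the opposite sign without DOX-negative replicate 2 (0.0095). Neither passed the threshold. BRAF, a RAF kinase, rose from 177 ± 11.1 to 221 ± 5.95 CPM (mean ± SD of 3 libraries), or a log2 fold change of 0.32 (adjusted p 0.000720 by edgeR, SE 0.0643), with the opposite sign in the deposited TPM.

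Regulators of RAS and scaffolds were among the other calls of the cascade. Values are given for 3 of its 5 rises, those with the largest changes, and for its 3 falls. RASA2, a RAS GTPase-activating protein, had a log2 fold change of 0.31 (adjusted p 0.000992 by edgeR, SE 0.0646), and RRAS, a RAS-related GTPase, had 0.35 (adjusted p 0.0208 by edgeR, SE 0.108). Both took the opposite sign in the deposited TPM. The RRAS call was lost on leaving out vehicle replicate 2 (edgeR adjusted p 0.0856) or 3 (0.0625), or DOX replicate 2 (0.0668). LAMTOR3, a scaffold for MEK1 and ERK1, fell from 29.4 ± 3.68 to 17.8 ± 1.60 CPM (mean ± SD of 3 libraries), or a log2 fold change of -0.73 (adjusted p 3.31e-05 by edgeR, SE 0.110). KSR1, a scaffold for RAF and MEK, had -0.66 (adjusted p 0.00396 by edgeR, SE 0.161). NF1, the neurofibromin that SPRED proteins recruit, had -0.31 (adjusted p 0.000447 by edgeR, SE 0.0591). The heptamer ATCAGTA occurs in the 3′UTR of 3 of the 8 genes called lower in the 5 lists, LAMTOR3, NF1 and IGF1R. It also occurs in 2 of the 27 called higher with a 3′UTR examined, RASA2 and SOS2, and in 5 of the 44 not called. Over all genes tested with a 3′UTR, the shares were 21.5% of genes called lower and 7.43% of those called higher. Of those not called, 8.05% held it. The heptamer was picked out by a scan of these same libraries, so these counts are no independent evidence. Its part in the changes was not tested.

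Of 15 receptor genes upstream of RAS, 11 were tested, 2 rose and 3 fell, with a median log2 fold change of -0.22. That is 45.5% called, against 26.7% of all genes tested. With limma on either version of the deposited TPM 0 were called, and 3 to 4 had an unadjusted p under 0.05. IGF1R fell from 264 ± 20.5 to 200.4 ± 4.89 CPM (mean ± SD of 3 libraries), or a log2 fold change of -0.40 (adjusted p 9.43e-05 by edgeR, SE 0.0655). ERBB2 had -0.38 (adjusted p 0.000574 by edgeR, SE 0.0736) and FGFR1 had -0.30 (adjusted p 0.0113 by edgeR, SE 0.0841), the latter not past the threshold without DOX-negative replicate 1 (0.0528). EGFR had 0.19 (adjusted p 0.0469 by edgeR, SE 0.0677) and MET had 0.20 (adjusted p 0.0240 by edgeR, SE 0.0638), and both took the opposite sign in the deposited TPM. Those 2 calls were lost with the replicate number as a block, at adjusted p of 0.0928 and 0.0647. The EGFR call was also lost on leaving out vehicle replicate 1 (edgeR adjusted p 0.0771), 2 (0.0562) or 3 (0.139), or DOX replicate 2 (0.248) or 3 (0.0714), and that of MET on leaving out vehicle replicate 1 (0.104), or DOX replicate 1 (0.107) or 3 (0.123). In place of 5 calls, the list had 2 without vehicle replicate 1 and 3 without DOX replicate 3.

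**Figure D4:**
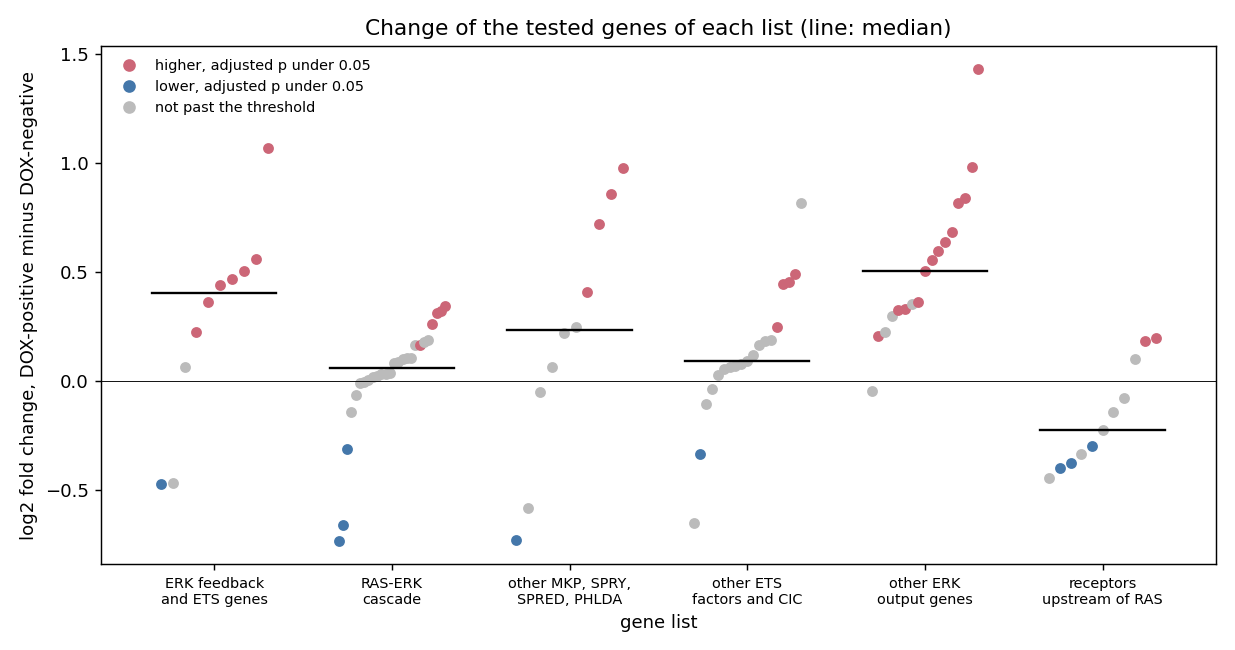
Log2 fold change from counts (y axis) of each tested gene of the 10 ERK feedback and ETS genes and of 5 pathway lists (x axis), coloured where the adjusted p is under 0.05, with a line at each list's median. Medians are 0.40 for the 10 genes and 0.51 for other ERK output genes, against 0.062 for the cascade and -0.22 for receptors. With the deposited TPM, which move the median of all genes by -0.37 to -0.39, 0 genes of these lists are called except 1 of the cascade with a pseudocount of 0.1.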

How the data were processed

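RNA from triplicate cultures was made into libraries with the TruSeq Stranded mRNA kit. The authors deposited whole-number read counts for 28008 genes and TPM for 25546 genes. The submitters' processing notes name STAR, DESeq2 and GRCh38. Settings, annotation and the use of strand in counting are not given in the sources used here. Groups came from the sample labels.

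The main test was edgeR 4.0.16 in R 4.3.3: filterByExpr (14292 genes kept), TMM factors, and the two-sided quasi-likelihood test (glmQLFit, glmQLFTest) with group as the sole term. P-values were adjusted by Benjamini-Hochberg over all genes kept, with a threshold of 0.05. The SE was the size of the log2 change over the root of F. Replicates differed beyond sampling noise (chi-square per degree of freedom 3.65 to 19.0), and p-values measure the spread between these cultures. The main edgeR fit alone was tested on simulated counts, which were drawn with its own dispersions. It recovered 72% of true log2 changes of 0.5 and 90.8% of those of 1, with 12 false calls. The deposited TPM were tested with limma 3.58.1 on log2(TPM + 1) and log2(TPM + 0.1), which understates changes of low genes. Motifs were counted in 1 GENCODE 29 principal transcript per gene, that with the longest 3′UTR (50 bases or more). The genes, lists and motifs were chosen with earlier results of these data known.

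The text names the 10 genes, MUC1, pathway genes set by name (some are not reported here), and from each list up to 3 rises and 3 falls past the threshold whose CPM ranges were apart and whose mean logCPM reached 1. Marker genes, SOS2, FOS, EPHA4, MAFF, DUSP2 and SPRY3 were named after their values were seen. Alternatives were DESeq2 1.42.0, RLE factors, library totals, other count filters (none, or 10 counts per library), a replicate block, thinned counts, TPM without 5 short noncoding RNAs, and leaving out each library.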

Additional observations from a re-analysis of the deposited data

How the results depend on the processing

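Of the 10 genes, 8 were called in each of the 7 other count fits, and 7 to 8 when 1 library was left out, PHLDA1 being lost without DOX-negative replicate 3. PHLDA1 was also lost with TPM rescaled without the 5 short noncoding RNAs (limma adjusted p 0.0685). The deposited TPM changed most results. With log2(TPM + 1), 443 genes were called in place of 3816, and with log2(TPM + 0.1), 408, of which 6.77% and 7.11% were higher in place of 48.8%. Library totals gave 3836 calls, 39.3% of them higher. With either version of the deposited TPM, 0 of the 10 genes, 0 other ERK output genes, 0 other ETS and CIC genes, 0 other phosphatase, Sprouty, SPRED and PHLDA genes and 0 receptors were called by limma, and in the cascade 0 with a pseudocount of 1 and 1 with 0.1. At an unadjusted p under 0.05 these counts were 2, 1, 1 and 3, for receptors 3 and 4, and for the cascade 3 with either. With pseudocounts of 1 and 0.1, the log2 fold change turned negative for SPRED1 (-0.031 and -0.031), RRAS (-0.047 and -0.047), CCND1 (-0.069 and -0.069), BRAF (-0.071 and -0.072), RASA2 (-0.080 and -0.081), ETS2 (-0.15 and -0.15), PHLDA1 (-0.16 and -0.17), MET (-0.20 and -0.20), EGFR (-0.21 and -0.21), MAP2K1 (-0.29 and -0.30) and ETV5 (-0.32 and -0.33). Taken relative to the shift of the median gene, SPRED1 lay between 0.34 and 0.36 and PHLDA1 between 0.20 and 0.22. With 1 library left out, EGR1 ranged from -0.14 to 0.054, MAPK3 from -0.11 to 0.0095, receptor calls from 2 to 5 and all calls from 2784 to 3645.

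Receptor calls went from 5 to 3 with library totals, 3 with rescaled TPM and 3 with the replicate block. EGFR was also lost with the filter of 10 counts in every library (edgeR adjusted p 0.0518) and with thinned counts (0.0589), which left 4 receptor calls each, and ELF3 with rescaled TPM (limma adjusted p 0.0630). Samples of the same number did not deviate together (r of -0.019, -0.095 and -0.027). Whether cultures of the same number were handled together is not given by the labels, and these values cannot show it. The block left 3158 calls, 3136 of them shared with the fit without it, and 8 of the 10 genes, and among named genes it changed the calls of EGFR and MET alone. The cause of these differences was not tested. DUSP4 and ERG rest on few counts, and their intervals are wide.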

Other observations

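For DUSP6 and DUSP5, the genes with the nearest profile were sought among 9947 genes by Euclidean distance between log2 CPM values, each centred on its own mean over the 6 libraries. Nearest to DUSP6 were WIPI1 (distance 0.0976), STC2 (0.161), which encodes the secreted glycoprotein stanniocalcin 2, and PRODH (0.176), the proline dehydrogenase. Nearest to DUSP5 were ADM (0.106), which encodes the peptide adrenomedullin, ODC1 (0.109), the rate-limiting enzyme of polyamine synthesis, and ABHD5 (0.121), a coactivator of triglyceride lipase. ODC1 went from 161 to 326 CPM and ADM from 5.87 to 12.1 CPM. All distances rest on the same 6 libraries.

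Promoters from RefSeq (GRCh38.p14, 250 bases before to 50 after the start) were matched for 6 of the 10 genes. DUSP4, DUSP5, ETV4 and ETV5 had no entry, so the search did not cover them. The ETS motif CCGGAAGT and the CIC motif TGAATGAA, searched on both strands, occur in 4.14% and 1.65% of 35116 promoters. Neither occurs in the 9 promoters of the 6 matched genes, which at such low shares says little about them. The AP-1 motif TGACTCA occurs in 4.95% of promoters and, among the 6 genes, in SPRED2.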
